A study of Mus musculus with 12 samples.

Results

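Imprinted genes are copied mainly from the chromosome of a single parent, and those described here form a group of growth regulators and long non-coding RNAs (lncRNAs). The group was set by gene name and not by a cut on measured values, although earlier results of these data were known. It comprised H19, Igf2, Meg3, Rian, Mirg, Dlk1, Peg3, Cdkn1c, Kcnq1ot1 and Plagl1. Of these 10 names, 9 had a row, 1 each, among the 61210 genes of the count table, and Kcnq1ot1 was not analysed here. Interscapular brown adipose tissue was taken from wild type C57BL/6N mice aged 20 weeks, and total RNA depleted of ribosomal RNA was sequenced in 12 libraries. The 4 groups held 3 libraries each. NCD 22C mice ate chow, the control diet, and were housed at 22 °C. NCD 4C mice ate chow and spent 24 h at 4 °C. HFD 22C mice ate a high-fat diet (HFD) for 12 weeks from week 8 and were housed at 22 °C, and HFD 4C mice received the same diet and then 24 h at 4 °C. The sex of the mice was not given in the sources used here. No allele was altered in any group, and the libraries do not separate the maternal from the paternal copy. Nothing in the labels says whether a library was 1 animal, so the p-values measure the spread between these libraries only.

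Imprinted genes lie in clusters, and a methylated control region in each cluster sets which parental copy is used. In the cluster of H19 and Igf2, the maternal copy makes H19, an lncRNA that is abundant in the embryo and kept in adult skeletal muscle, and the paternal copy makes Igf2, a fetal growth factor. In the Dlk1 cluster, the paternal copy makes Dlk1, a membrane protein that holds back adipocyte differentiation, and the maternal copy makes the lncRNAs Meg3, Rian and Mirg, which carry small nucleolar RNAs and microRNAs. Peg3, a paternally expressed zinc finger protein, Cdkn1c, a maternally expressed inhibitor of cyclin-dependent kinases, and Plagl1, a paternally expressed zinc finger transcription factor, act in growth control and are linked in an imprinted gene network. In adult tissue most of these genes are turned down after birth, and brown adipose tissue beside muscle can carry RNA of both.

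The libraries held 15136861 to 46740702 assigned read counts. The 8 libraries of replicates 1 and 2, which the labels give as batch 1, held at most 21026727, and the 4 of replicate 3, batch 2, held at least 34067515. Brown adipocyte markers were abundant throughout, since the summed level of 8 markers, Ucp1 among them, ran from 12569 to 32572 CPM (counts scaled to the same library total). Skeletal muscle RNA was present in every library in very unequal amounts. Acta1, the actin of skeletal muscle, ranged from 96.0 to 3571 CPM, and Ckm, the creatine kinase of muscle, from 54.5 to 1992 CPM. The highest muscle score, the mean log2 CPM of 15 muscle genes, lay in replicate 2 of NCD 22C and of NCD 4C and in replicate 3 of HFD 22C and of HFD 4C. The change of H19 averaged over diets or temperatures, its correlation with the muscle score and several other calls are given with and without these 4 libraries. The ratios within a library were not tested without all 4 of them. In bulk tissue, fewer cells of a type and less RNA per cell cannot be told apart.

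Several of the RNAs are hosts of microRNAs, and their mature sequences are shown because they are the products that the host levels below could bear on. The RefSeq table for GRCm38.p6 placed miR-675 inside H19, miR-483 inside Igf2, miR-770 inside Meg3, and 14 hairpins, miR-410 among them, inside Mirg as annotated. Capitals mark the seed, bases 2 to 8, and each sequence runs 5′ to 3′.
mmu-miR-675-5p (H19): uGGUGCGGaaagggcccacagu
mmu-miR-675-3p (H19): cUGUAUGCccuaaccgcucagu
mmu-miR-483-3p (Igf2): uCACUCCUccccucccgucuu
mmu-miR-770-5p (Meg3): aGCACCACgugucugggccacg
mmu-miR-410-3p (Mirg): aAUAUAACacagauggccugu
These 5 seeds differ from each other, so the hosts share no seed among the sequences shown. The libraries count the long host RNAs, and the mature microRNAs themselves were not measured.

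The promoters were read for 2 motifs, GGGGCCCC, the core that the Plagl1 protein binds, and TGACGTCA, the cAMP response element (CRE), on both strands; each is its own reverse complement and the 2 do not overlap. The cAMP response element is of interest in brown fat because cold reaches the adipocyte through adrenergic receptors and cAMP. Over all 32851 promoters of the RefSeq table, which span 250 bases before to 50 after a start, 1.08% held the first motif and 1.79% the second. The Peg3 promoter held both, which 11 of the 32851 promoters did, and the Meg3 promoter held the second. No other member with a promoter in the table held either motif in this window, and H19 and Cdkn1c had none in the table. The 250 bases before the start of Peg3 and of Meg3 are shown because they carry these letters, with the motifs in capitals. The Peg3 stretch lies at chr7:6730420-6730669 on the minus strand and the Meg3 stretch at chr12:109540746-109540995 on the plus strand, both of GRCm38.p6.
Peg3: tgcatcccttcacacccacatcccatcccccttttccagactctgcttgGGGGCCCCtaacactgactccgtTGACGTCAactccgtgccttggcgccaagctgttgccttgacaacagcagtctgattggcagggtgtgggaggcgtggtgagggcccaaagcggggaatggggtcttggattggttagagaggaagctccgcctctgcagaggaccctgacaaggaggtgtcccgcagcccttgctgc
Meg3: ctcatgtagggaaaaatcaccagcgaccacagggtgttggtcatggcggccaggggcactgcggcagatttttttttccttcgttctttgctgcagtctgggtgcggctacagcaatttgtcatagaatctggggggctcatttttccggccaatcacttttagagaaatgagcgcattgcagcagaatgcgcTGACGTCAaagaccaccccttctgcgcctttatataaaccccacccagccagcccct
In Peg3 the Plagl1 core began 201 bases and the cAMP response element 178 bases before the start, and in Meg3 the cAMP response element began 57 bases before it. A match is a description of the letters and not of binding.

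All 9 measured members passed the filter on low counts, as 16737 genes of the table did. A gene was called where its Benjamini-Hochberg adjusted p in edgeR's quasi-likelihood test was under 0.05 and its absolute log2 fold change was over 0.5. Cold called none of the 9 members on NCD, where 6.27% of all genes were called, and none on HFD, where 9.58% were. The high-fat diet called none at 22 °C, against 2.09% of all genes, and none at 4 °C, against 4.75%. At an unadjusted p under 0.05 these 4 contrasts had 0, 1, 1 and 2 members, and DESeq2 called 0, 0, 0 and 1, the last being Peg3. Averaged over diets, cold called none of the members, with 12.7% of all genes called, 3 members under an unadjusted p of 0.05 and none called by DESeq2. Averaged over temperatures, the high-fat diet called 1, Peg3, which was higher, with 7.8% of all genes called, and DESeq2 also called Peg3 alone. The percentages are for edgeR calls. The shares of all genes under an unadjusted p of 0.05 and under DESeq2 are not given here, so those counts of members have no background beside them.

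The median log2 fold change of the 9 members was -0.12 for cold and 0.18 for HFD, beside -0.03 and 0.03 for all genes tested. The test across the 4 groups called no member at an adjusted p under 0.001, where 2.55% of genes passed, and Peg3 alone at 0.05, where 24.3% passed (edgeR, adjusted p = 0.0156). No member and no other gene had a diet effect that differed between temperatures in edgeR, so 0% were called, although 1091 genes had an unadjusted p under 0.05 and DESeq2 called 58. None of the members was among those 1091 genes.

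**Figure D1:**
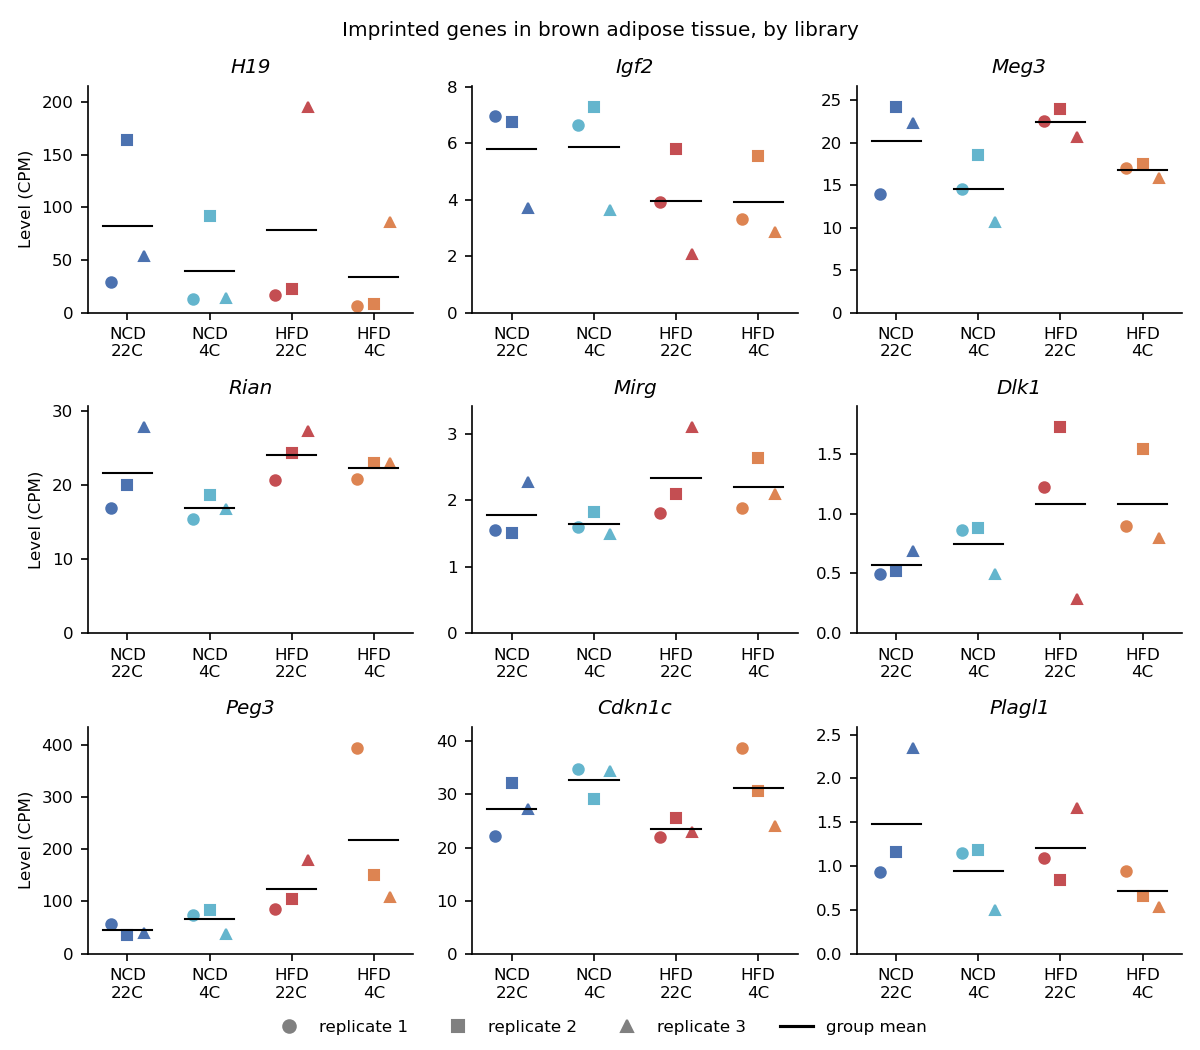
Level of each measured imprinted gene in CPM (vertical axis, from 0) in the 12 libraries by group; symbols give the replicate number and the line the group mean of 3 libraries. H19 has 1 library far above the other 2 in each group, and the 6 HFD libraries of Peg3 lie above the 6 NCD libraries.

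**Figure D2:**
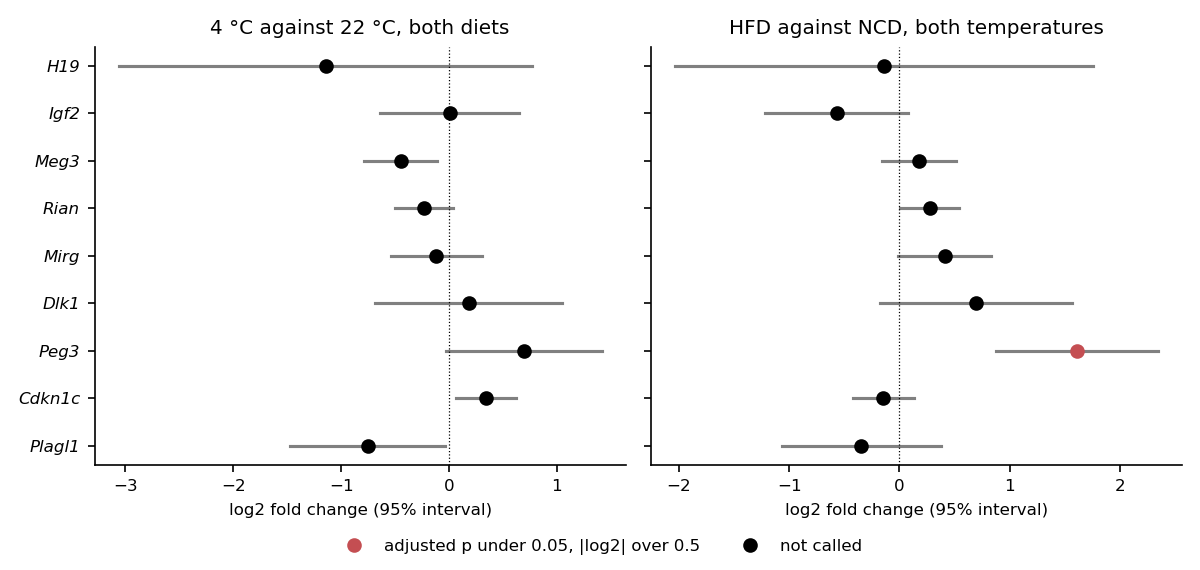
Log2 fold change with its 95% interval for 9 imprinted genes, for 4 °C against 22 °C over both diets (left) and HFD against NCD over both temperatures (right), from edgeR. Peg3 under HFD, in red, is the only member called, and the intervals of H19 are the widest in both panels.

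H19 is the lncRNA of the maternal Igf2 chromosome and lies at chr7:142575529-142578143 on the minus strand (GRCm38, GENCODE M21). In NCD 22C its level was 28.7, 164 and 54.1 CPM in replicates 1 to 3, and in NCD 4C it was 12.6, 91.7 and 13.9 CPM. In HFD 22C it was 16.6, 22.3 and 196 CPM, and in HFD 4C it was 6.17, 8.37 and 85.9 CPM. The highest library of each group was the one richest in muscle RNA, and the 4 groups overlapped. From the lowest to the highest library H19 spanned 31.8-fold, Acta1 37.2-fold and Ckm 36.5-fold.

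Relative to Acta1, H19 was far more even, at 4.50% to 7.84% of the Acta1 level with a median of 5.46%. It was 4.59% to 7.84% in NCD 22C, 4.50% to 5.47% in NCD 4C, 4.50% to 5.79% in HFD 22C and 5.49% to 6.80% in HFD 4C. On this scale the groups overlapped in both cold contrasts and for HFD at 22 °C, while at 4 °C the 3 HFD libraries lay just above the 3 NCD libraries. In that contrast the levels of 25.2% of all genes had no overlap, in either direction. A rise of 1 unit in the muscle score, which is 1 doubling, went with a rise of 1.01 in the log2 level of H19.

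The relation was tested for 9 members by permutation. H19 correlated with the muscle score at Pearson r = 0.984 and Spearman rho = 0.993 over 12 libraries (two-sided permutation p = 1e-05 for each, the smallest that 100000 resamples can give; adjusted 9e-05). Without replicate 3 of HFD 22C and replicate 2 of NCD 22C, the libraries farthest from the median score, r was 0.974 over 10 libraries. With group means removed, r was 0.989. Within batch 1 r was 0.996 over 8 libraries (exact permutation p = 2.48e-05), and batch 2, with 4 libraries, held too few. The 4 libraries richest in muscle stood apart from the rest, and without them r was 0.970 over 8 libraries (exact permutation p = 0.000149, adjusted 0.00134). Against Acta1 alone r was 0.990 and against Ckm alone 0.983. None of the other 8 members passed an adjusted p of 0.05 for Pearson's r, and theirs ran from -0.56 for Dlk1 to 0.45 for Meg3. By Spearman's rho with group means removed, Rian and Mirg had 0.727 and 0.713 (permutation test, adjusted p = 0.0347 for each). Their Pearson's r in that setting was 0.39 and 0.37. The permutation shuffled all 12 libraries freely and did not allow for the 4 group means taken out. No pass is therefore read from the p-values of that setting. Within batch 1, Peg3 had r = -0.807 (exact permutation test, adjusted p = 0.0641).

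**Figure D3:**
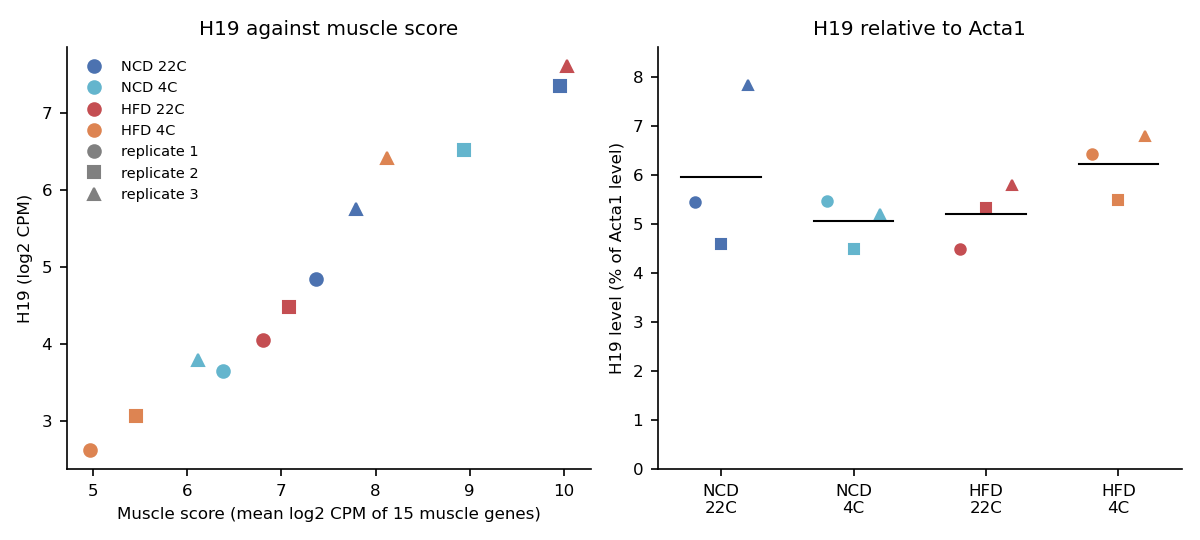
Left, H19 in log2 CPM against the muscle score, the mean log2 CPM of 15 muscle genes, for 12 libraries (colour, group; symbol, replicate); right, H19 as a percentage of the Acta1 level in the same libraries, with group means. H19 follows the muscle score over its whole range, and the percentage stays between 4.50 and 7.84 in all groups.

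Between 4 °C and 22 °C, H19 was not called. Its log2 fold change averaged over diets was -1.14 (SE 0.874, edgeR adjusted p = 0.385), and it was -1.07 on NCD and -1.22 on HFD. Libraries of the same replicate number and diet deviated together, with correlations of 0.219 to 0.456 on NCD and 0.155 to 0.386 on HFD. On HFD, replicates 1 and 2 also did so when crossed, at 0.134 and 0.106. With the same-numbered pairs as a block, H19 fell by 1.33 on the log2 scale (SE 0.137, edgeR adjusted p = 0.000404). It fell by 1.33 on NCD and by 1.33 on HFD (adjusted p = 0.00566 and 0.00396). The labels name no pairs of mice, and the block rests on correlations in these same data. The library richest in muscle shared its number within a diet, replicate 2 on NCD and replicate 3 on HFD. These p-values hold only if the numbers mark true pairs, which was not tested. In the block fit averaged over diets Acta1 fell by 1.36 (SE 0.109) and Ckm by 1.43 (SE 0.109), and 15 of the 15 muscle genes were called lower. Over all genes the block called 2564 in that contrast, against 2123 without it. Without the block none of the 15 muscle genes was called. Without the library of each group richest in muscle, H19 fell by 1.53 with cold (edgeR adjusted p = 0.00462). Under HFD it then fell by 0.98 (adjusted p = 0.0323), against a log2 fold change of -0.14 (adjusted p = 0.937) with all libraries. In each group the library left out was also the highest for H19, so this fit drops libraries by a value tied to H19. Its p-values for H19 are a description and not a test. With the muscle score as a term, the log2 fold change of H19 was 0.29 (SE 0.155, edgeR adjusted p = 0.228), so the direction turned. The part of muscle RNA in the difference was not tested beyond these values. The 5 genes of regenerating or fetal muscle, Myog, Myh3 and Myh8 among them, summed to 6.97 to 29.1 CPM in NCD 22C and 0.459 to 5.59 in NCD 4C. On HFD they summed to 0.580 to 7.14 CPM at 22 °C and 0.180065 to 6.74 at 4 °C. Of the 4 tested, Myh8 alone was called lower with cold on NCD (log2 fold change -5.29, edgeR adjusted p = 0.0192). Averaged over diets it was also the only one called (-3.77, adjusted p = 0.00620), and on HFD none was called.

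Igf2, the paternally expressed growth factor beside H19 at chr7:142650766-142666816 on the minus strand, was low. Its level was 6.97, 6.74 and 3.70 CPM in NCD 22C and 6.65, 7.30 and 3.62 CPM in NCD 4C. It was 3.93, 5.80 and 2.09 CPM in HFD 22C and 3.33, 5.55 and 2.87 CPM in HFD 4C, and the groups overlapped. Replicate 3, of batch 2, was the lowest library of each group. With cold its log2 fold change was 0.01, and the 95% interval ran from -0.64 to 0.65. HFD gave a log2 fold change of -0.57 averaged over temperatures (SE 0.294, edgeR adjusted p = 0.223), and it was -0.57 within batch 1 (adjusted p = 0.145). With batch as a term it was also -0.57 and passed the test (SE 0.161, adjusted p = 0.0394), as it did with a replicate number as a block (-0.59, adjusted p = 0.0255), while without the libraries richest in muscle it was -0.14 (adjusted p = 0.788).

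Between H19 and Igf2 r was -0.15 over 12 libraries, given as a description. The ratio of H19 to Igf2 counts ran from 3.83 to 93.2 at 22 °C and from 1.51 to 29.8 at 4 °C. Its mean log2 difference between cold and 22 °C was -1.36 (6 libraries against 6, exact permutation test, two-sided, p = 0.214). Within same-numbered pairs of a diet all 6 differences had the same sign (exact p = 0.0313, the smallest that 6 pairs allow; adjusted over 4 ratios 0.125).

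Of the wider axis of insulin-like growth factors, 15 of 19 listed genes were tested, and the list holds receptors, binding proteins and signal adaptors. Averaged over diets, cold raised 2 and lowered 3 of the 15, in a contrast that called 12.7% of all genes. The median log2 fold change of the 15 was 0.02 beside -0.03 for all genes. Igf1, the postnatal growth factor of this family, was 29.9, 35.3 and 37.6 CPM in NCD 22C and 12.5, 10.9 and 10.5 CPM in NCD 4C. It was 12.2, 12.8 and 11.3 CPM in HFD 22C and 8.24, 8.89 and 15.8 CPM in HFD 4C, so NCD 22C alone was high. Igf1 fell by 1.60 on the log2 scale with cold on NCD (SE 0.219, edgeR adjusted p = 0.00207) and fell by 1.504 with HFD at 22 °C (SE 0.219, adjusted p = 0.00698). Irs2, an adaptor of the insulin receptor, rose with cold by 2.09 on NCD and by 1.85 on HFD (adjusted p = 0.0190 and 0.0234). Igfbp5, a binding protein, fell by 0.92 with cold on NCD (adjusted p = 0.00659), and Insr, the insulin receptor, rose by 0.55 (adjusted p = 0.0147). Igfbp3, another binding protein, rose by 1.33 with cold averaged over diets (adjusted p = 0.0197). Igfals, which holds the factors in a complex in blood, fell by 1.12 with HFD averaged over temperatures (adjusted p = 0.0217). It was not called without replicate 1 of HFD 4C (adjusted p = 0.0551) or without the libraries richest in muscle (adjusted p = 0.138).

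Markers of other cells moved with cold as well, in contrasts that called 6.27% of all genes on NCD and 9.58% on HFD. Over 9 stromal genes the summed level was 1208 to 1806 CPM in NCD 22C and 623 to 696 CPM in NCD 4C, and 4 of the 9 were called lower, Col1a1 and Col3a1 among them (-1.71 and -1.70). On HFD it was 679 to 903 CPM at 22 °C and 490 to 903 CPM at 4 °C, and none was called. Over 8 brown adipocyte genes it was 12569 to 15213 CPM in NCD 22C and 28817 to 32572 CPM in NCD 4C, with 4 of the 8 called higher, and on HFD 12919 to 16367 CPM and 20719 to 25755 CPM, with 3 higher and 1 lower. With the stromal score as a term, Igf1 had a log2 fold change of -0.94 with cold on NCD and was not called (adjusted p = 0.109), the only fit that ended this call. The calls of Irs2, Igfbp5 and Insr on NCD also ended with that term (adjusted p = 0.351, 0.206 and 0.260) and without the muscle-rich libraries (0.131, 0.0889 and 0.102). Irs2 on NCD was not called without replicate 2 or 3 of NCD 22C or replicate 2 of NCD 4C (adjusted p = 0.0767, 0.0844 and 0.0709), nor on HFD without any of 5 of the 6 libraries compared. Insr was not called without replicate 1 or 3 of NCD 22C or replicate 2 of NCD 4C (adjusted p = 0.0595, 0.0508 and 0.0566). The stromal term gave -0.44 for Meg3 (adjusted p = 0.377) and 0.20 for Igfbp3 (adjusted p = 0.866), and the part of these cells was not tested further.

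The lncRNAs of the Dlk1 cluster lie in a row on the plus strand of chromosome 12. Meg3, whose loss is known to change imprinting of the cluster, spans chr12:109541001-109571726. Its level was 14.0, 24.2 and 22.3 CPM in NCD 22C and 14.6, 18.5 and 10.6 CPM in NCD 4C. It was 22.5, 23.9 and 20.7 CPM in HFD 22C and 17.0, 17.5 and 15.8 CPM in HFD 4C. On HFD the 3 cold libraries all lay below the 3 at 22 °C, as in 30.3% of all genes in either direction, and on NCD the groups overlapped. The log2 fold change averaged over diets was -0.45 (SE 0.154, edgeR adjusted p = 0.0610), and it was -0.48 on NCD and -0.42 on HFD. With the pairs as a block it was -0.45 (adjusted p = 0.0352), which is under the size set for a call. It was called without replicate 1 of NCD 22C (-0.53, adjusted p = 0.0220) and without replicate 2 of NCD 4C (-0.55, adjusted p = 0.0290), and it was -0.35 with the muscle score as a term (adjusted p = 0.183).

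Rian, a host of small nucleolar RNAs at chr12:109603940-109661716, was 16.9, 20.0 and 27.9 CPM in NCD 22C and 15.5, 18.7 and 16.7 CPM in NCD 4C. It was 20.7, 24.3 and 27.3 CPM in HFD 22C and 20.8, 23.0 and 23.1 CPM in HFD 4C. At 4 °C the 3 HFD libraries lay above the 3 NCD libraries, as in 25.2% of all genes in either direction, and the log2 fold change was 0.39 (edgeR adjusted p = 0.209). Averaged over diets the fold change with cold was -0.23 (SE 0.123, adjusted p = 0.206).

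Mirg, a microRNA host at chr12:109729764-109749460, ranged from 1.49 to 3.11 CPM. Its highest library was replicate 3 of HFD 22C, and at 4 °C its 3 HFD libraries also lay above the 3 NCD libraries. Its log2 fold change with HFD averaged over temperatures was 0.41 (SE 0.194, edgeR adjusted p = 0.184), and with cold it was -0.12 (95% interval -0.54 to 0.31).

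Dlk1, at chr12:109452823-109463336, was scarce, with 8 to 35 counts per library. It was 0.498 to 0.686 CPM in NCD 22C, 0.497 to 0.883 in NCD 4C, 0.282 to 1.73 in HFD 22C and 0.792 to 1.54 in HFD 4C. The lowest and the highest library both belonged to HFD 22C. Its log2 fold change with HFD was 0.70 (SE 0.397, edgeR adjusted p = 0.264), which at this depth was not distinguishable from no change.

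Ratios within a library do not depend on how libraries are scaled, and 4 of the 5 planned ones could be formed, since that of Cdkn1c to Kcnq1ot1 was not analysed here. The ratio of Rian to Meg3 counts was 0.825 to 1.32 at 22 °C and 1.01 to 1.57 at 4 °C, a mean log2 difference of 0.23 (exact permutation test, 6 against 6, two-sided, p = 0.160). The ratio of Mirg to Meg3 was 0.0635 to 0.151 at 22 °C and 0.0998 to 0.152 at 4 °C, a difference of 0.36 (exact p = 0.108). The ratio of Dlk1 to Meg3 was 0.0143 to 0.0731 at 22 °C and 0.0478 to 0.0893 at 4 °C, a difference of 0.75 (exact p = 0.0714). Adjusted over the 4 ratios the p-values were 0.214 for each, so no ratio passed the test at this number of libraries. Within a diet the exact permutation test of 3 libraries against 3 cannot go below p = 0.1, which the Dlk1 to Meg3 ratio reached on NCD, with all 3 cold libraries above the others. Without replicate 2 of HFD 22C the difference in that ratio was 0.97 and passed (exact permutation test, adjusted p = 0.0433).

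**Figure D4:**
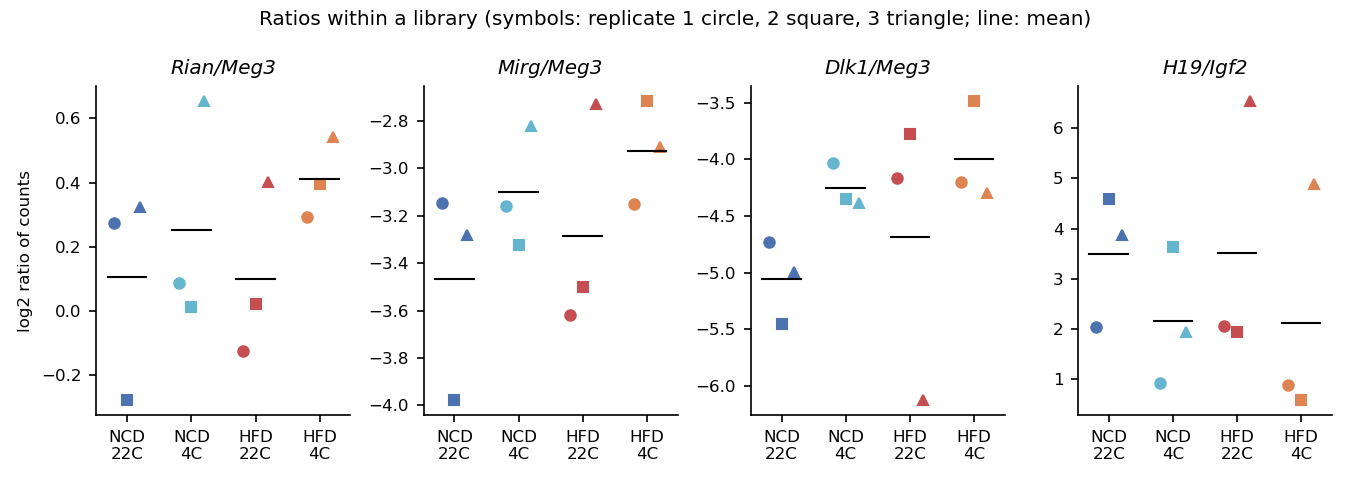
Log2 ratio of the counts of 2 genes in the same library, for Rian, Mirg and Dlk1 over Meg3 and for H19 over Igf2, by group, with 0.5 added to each count; symbols give the replicate and lines the group means. Within a diet the temperatures overlap in all ratios except Dlk1/Meg3 on NCD, where the 3 libraries at 4 °C lie above the 3 at 22 °C.

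Peg3, at chr7:6703892-6730431 on the minus strand, was the member that differed with diet. Its level was 57.0, 36.0 and 39.4 CPM in NCD 22C and 73.2, 84.2 and 38.2 CPM in NCD 4C. It was 85.7, 104 and 179 CPM in HFD 22C and 394, 150 and 109 CPM in HFD 4C. The lowest HFD library, at 85.7 CPM, lay just above the highest NCD library, at 84.2 CPM, so the 6 HFD libraries did not overlap the 6 NCD libraries, as in 4.31% of all genes in either direction. Replicate 1 of HFD 4C stood far above the rest.

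Averaged over temperatures, Peg3 rose with HFD by 1.61 on the log2 scale, or 3.05-fold (SE 0.335, 95% interval 0.87 to 2.34, edgeR adjusted p = 0.0112). The contrast at 22 °C gave 1.48 (SE 0.473, adjusted p = 0.133) and the contrast at 4 °C 1.74 (SE 0.475, adjusted p = 0.0574), with no overlap in either contrast, as in 25.9% and 25.2% of all genes. The difference between these effects was 0.26 (SE 0.655, adjusted p = 0.963). At 4 °C the call was made without replicate 3 of HFD 4C (2.06, adjusted p = 0.0491) and without the libraries richest in muscle (2.30, adjusted p = 0.0485). Leaving out any of the 12 libraries gave 1.23 to 1.75, and all 12 fits called it. The log2 fold change was 1.61 with the muscle score as a term (adjusted p = 0.0110) and 1.64 without the libraries richest in muscle (adjusted p = 0.0241). Within batch 1 alone it was 1.41 and just missed the threshold (adjusted p = 0.0501). Batch 2 had 1 library per group, with 39.4 and 38.2 CPM on NCD and 179 and 109 CPM on HFD.

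With cold, Peg3 had a log2 fold change of 0.69 averaged over diets (SE 0.329, edgeR adjusted p = 0.162). Within batch 1 it rose with cold by 1.14 (adjusted p = 0.0457), in which 4 cold libraries stood against 4. In batch 2 the cold libraries were lower, at 38.2 against 39.4 CPM on NCD and 109 against 179 CPM on HFD.

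Markers of other cell types also differed between the diets averaged over temperatures, a contrast that called 7.8% of all genes. Summed over 6 endothelial genes, the level was 627 to 977 CPM on NCD and 859 to 1287 CPM on HFD, and 2 of the 6 were called higher. Over 9 stromal genes it was 623 to 1806 CPM on NCD and 490 to 903 CPM on HFD, and 2 of the 9 were called lower. The stromal genes did not move as 1, since 3 of the 9 had a log2 fold change above 0. Cd34 had 0.42 (edgeR adjusted p = 0.0185), under the size set for a call, and was called higher with HFD at 4 °C (0.56, adjusted p = 0.0409). Over 3 immune genes the summed level was 17.0 to 27.6 CPM on NCD and 23.3 to 54.1 CPM on HFD. Over 3 genes of dividing cells it was 14.98 to 20.1 CPM and 11.2 to 87.4 CPM, and over 3 genes of blood 746 to 1187 CPM and 521 to 878 CPM. None of the immune, dividing cell or blood genes was called. With the stromal score as a term, which was chosen after the data were seen, Peg3 had a log2 fold change of 1.25 (adjusted p = 0.0532) and its call ended. The part of the other cell types was not tested.

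Other paternally expressed genes are given beside Peg3. Mest, a lipase-like protein tied to fat cell growth, was 1.93 to 3.31 CPM in NCD 22C and 1.89 to 3.12 in NCD 4C. Mest was 3.76 to 10.95 CPM in HFD 22C and 7.04 to 14.9 in HFD 4C, with no overlap between the diets, as in 4.31% of all genes in either direction. It rose with HFD by 1.92 on the log2 scale (SE 0.294, edgeR adjusted p = 0.00254), and at 4 °C by 2.40 (adjusted p = 0.0104), a call that ended without replicate 1 or replicate 3 of NCD 4C (adjusted p = 0.0586 and 0.0587). Nnat, a small membrane protein of the endoplasmic reticulum, was 4.23 to 10.5 CPM in NCD 22C, 4.19 to 9.42 in NCD 4C, 17.9 to 24.9 in HFD 22C and 8.91 to 20.4 in HFD 4C. It rose with HFD by 1.40 (SE 0.287, adjusted p = 0.0106), although replicate 1 of HFD 4C lay within the NCD range, and within batch 1 alone its value was 1.24 and not called (adjusted p = 0.0539). Usp29, which starts beside Peg3 and was chosen after its values were seen, was 0.118 to 1.22 CPM and had a log2 fold change of 1.05 with HFD (adjusted p = 0.146). Its highest library was the one highest for Peg3.

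**Figure D5:**
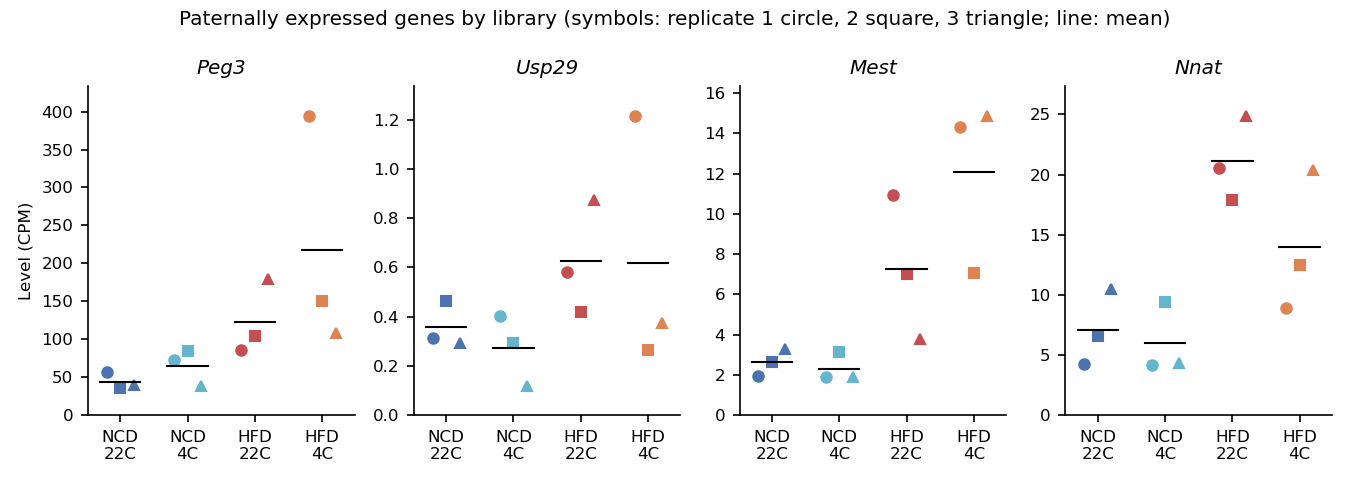
Level in CPM (from 0, a scale for each gene) of the paternally expressed genes Peg3, Usp29, Mest and Nnat in 12 libraries by group; symbols give the replicate and lines the group means. The HFD libraries of Peg3 and Mest lie above all NCD libraries, those of Nnat and Usp29 partly overlap them.

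Cdkn1c, at chr7:143458339-143461050 on the minus strand, overlapped between the groups in each of the 4 contrasts. Its level was 22.1, 32.2 and 27.3 CPM in NCD 22C and 34.9, 29.1 and 34.5 CPM in NCD 4C. It was 21.9, 25.5 and 22.9 CPM in HFD 22C and 38.8, 30.6 and 24.1 CPM in HFD 4C. Its log2 fold change with cold averaged over diets was 0.34 (SE 0.127, edgeR adjusted p = 0.0806). Without the libraries richest in muscle it rose by 0.52 (adjusted p = 0.0302).

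Plagl1, at chr10:13060504-13131694 on the plus strand, was scarce, with 15 to 96 counts per library and 0.497 to 2.35 CPM. It was 0.933 to 2.35 CPM in NCD 22C, 0.497 to 1.18 in NCD 4C, 0.836 to 1.67 in HFD 22C and 0.536 to 0.945 in HFD 4C, and the groups overlapped. Its log2 fold change with cold was -0.75 (SE 0.328, 95% interval -1.47 to -0.03, edgeR adjusted p = 0.128).

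Members whose groups did not overlap were counted in the 6 contrasts. Cold on NCD had none of 9, beside 27.8% of all genes, and cold on HFD had 1, Meg3, beside 30.3%. HFD at 22 °C had 1, Peg3, beside 25.9%, and HFD at 4 °C had 3, Peg3, Rian and Mirg, beside 25.2%. Cold averaged over diets had none, beside 8.13%, and HFD averaged over temperatures had 1, Peg3, beside 4.31%.

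Levels of different genes were compared per kilobase of annotated exon, as CPM per kb. Cdkn1c had the highest median at 13.8 CPM per kb (10.7 to 19.1), followed by H19 at 10.4 (2.51 to 79.7) and Peg3 at 6.38 (2.70 to 29.6). Cdkn1c exceeded H19 in 6 of 12 libraries, so their order is not set by these data, and H19 exceeded Peg3 in 9 of 12. Peg3 exceeded Rian, the next at 1.14 CPM per kb (0.849 to 1.53), in all 12 libraries with no overlap of the ranges. Meg3 followed at 0.996 (0.588 to 1.34), and Rian exceeded it in 10 of 12 libraries. Igf2 had 0.828 (0.365 to 1.28), and Meg3 exceeded it in 7 of 12. Mirg had 0.255 (0.205 to 0.426), Dlk1 0.146 (0.0499 to 0.305) and Plagl1 0.130 (0.0636 to 0.301), and Dlk1 exceeded Plagl1 in 8 of 12. All ranges of neighbours overlapped except those of Peg3 and Rian.

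Of 51 further imprinted genes listed by name, 41 had a row, 47 rows in all, and 35 rows were tested. Cold called 1 row higher and 3 lower on NCD, beside 6.27% of all genes, and 1 higher and 2 lower on HFD, beside 9.58%. HFD called none at 22 °C, beside 2.09%, and 2 higher and 1 lower at 4 °C, beside 4.75%. Averaged over diets cold called 1 higher and 3 lower, beside 12.7%, with a median log2 fold change of -0.17. Averaged over temperatures HFD called 2 higher and 1 lower, beside 7.8%, with a median of 0.05.

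Airn, the lncRNA that lies antisense to Igf2r, was 5.51 to 6.78 CPM in NCD 22C and 2.51 to 3.73 in NCD 4C. It was 6.43 to 12.8 CPM in HFD 22C and 3.52 to 3.92 in HFD 4C. All cold libraries lay below all others, and 8.13% of all genes had no overlap in that contrast, in either direction. It fell with cold by 1.02 on NCD and by 1.42 on HFD on the log2 scale (edgeR adjusted p = 0.0291 and 0.00496), although reads of an antisense pair can be told apart only where counting used strand. The same holds for Mest beside Copg2, Nnat beside Blcap, Igf2 beside Igf2os and Cdkn1c beside Gm44732, which overlap on opposite strands. Averaged over diets Airn fell by 1.22 (adjusted p = 0.000669). Ppp1r9a, an actin-binding scaffold protein, fell by 0.61 on NCD and by 0.72 on HFD (adjusted p = 0.0459 and 0.0177). H13, a signal peptide peptidase, rose with cold by 0.73 on NCD (adjusted p = 0.0122). Snhg14, an lncRNA host of small nucleolar RNAs, had 3 rows tested, which may share reads. QNCMUSG00049924 fell by 1.67 with cold on NCD (adjusted p = 0.0387). QNCMUSG00049914, under a mean of 1 CPM and named after its values were seen, rose by 2.31 with cold on HFD (adjusted p = 0.0494) and by 2.97 with HFD at 4 °C (adjusted p = 0.0389), and the third row was not called, so the rows give no common direction. Snrpn, which starts that transcript, fell by 0.51 with HFD (adjusted p = 0.0360), and Trappc9, a trafficking protein, fell by 0.51 with HFD at 4 °C (adjusted p = 0.0293).

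Most of these single contrasts did not keep their calls. All 4 calls for cold on NCD were lost in 5 fits, with the adjusted p of Airn given for each, namely within batch 1 (adjusted p = 0.105), without the libraries richest in muscle (0.135), with the stromal score as a term (0.234), and without replicate 2 or replicate 3 of NCD 22C (0.0924 and 0.0606). On HFD, Airn was not called within batch 1 (adjusted p = 0.0632) or without the muscle-rich libraries (0.0735), and Ppp1r9a was not without replicate 1 of HFD 22C (0.0682). The call of Snrpn ended without any of 8 libraries and that of Trappc9 without any of 5. Averaged over diets, Airn and Ppp1r9a, which fell by 0.67 (adjusted p = 0.00232), were called in every alternative fit.

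As a description, the genes whose log2 CPM followed each member most closely over the 12 libraries were listed. Those of H19 were Pdlim3, Tnnc2 and Dusp27, at r = 0.996, 0.994 and 0.992; Tnnc2 is a troponin of fast muscle. Over the 15 muscle genes r with H19 ran from 0.948 for Myh1 to 0.994 for Tnnc2. The 3 genes nearest to Peg3 were Dip2b, Rassf4 and Nup153 (r = 0.972, 0.967 and 0.961). Those nearest to Igf2 were Hcfc1r1, Dazap2 and Cops7a (0.938, 0.926 and 0.922). Meg3 was followed most closely by Zcchc14 and Olfr735 (0.907 and 0.897), Rian by Hes1 and 4930581F22Rik (0.894 and 0.883), and Mirg by Gripap1 and Ankrd12 (0.892 and 0.885). Dlk1 was nearest to Ifi44, Arhgap18 and Sox13 (0.922, 0.899969 and 0.887), Cdkn1c to Ell2, Tmem68 and Fip1l1 (0.870, 0.867 and 0.859), and Plagl1 to Tm9sf4, Plin4 and Cadm2 (0.890, 0.873 and 0.860). The points of these correlations share their libraries, depth and muscle content. Within the Dlk1 cluster, Meg3 and Rian had r = 0.65, and 0.44 with group means removed.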

How the data were processed

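Total RNA libraries were made with the TruSeq kit after depletion of ribosomal RNA and sequenced as read pairs. The authors trimmed reads with cutadapt and estimated counts per gene with salmon against GENCODE M22 and RNAcentral 5 (GRCm38). The deposited table holds these estimated counts as whole numbers; whether counting used strand is not given in the sources used here. Here edgeR 4.0.16 was run on all 12 libraries (filterByExpr with a minimum count of 10, TMM scaling, a mean per group, quasi-likelihood tests, R 4.3.3), and 16737 genes passed the filter. CPM scale each library to 1000000 TMM-scaled counts. Alternatives were DESeq2 1.42.0 and its size factors, other count filters, batch, replicate block, muscle score and left-out libraries. Leaving out the library of each group richest in muscle, and the stromal score, were added after seeing the data. Scripts were tested on simulated data. Members and gene lists were chosen with earlier results of these data known.

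All members, Acta1 and Ckm were named; of the other imprinted genes and the insulin-like growth factor axis, up to 4 per contrast past the threshold with the largest change and a mean of at least 1 CPM; and for each member the 3 genes most alike, of which unnamed identifiers are left out. The rule also covers the lists of cell type markers, which are given here by their sums and counts instead. The result of 1 of these lists is not reported here. Same-numbered libraries of a diet deviated together across temperature, but not throughout across diets (-0.180 to 0.365 at 22 °C and -0.211 to 0.196 at 4 °C). Differently numbered libraries on NCD had -0.289 to 0.0439. On HFD, replicates 1 and 2 had 0.134 and 0.106 when crossed, near their same-numbered 0.155 and 0.217. Crossed pairs with replicate 3 on HFD had -0.268 to -0.197. Whether a shared number marks paired mice, a batch or muscle content was not tested. The authors give the depot as interscapular, which was followed here, although the description of the series names inguinal tissue. Brown adipocyte markers were abundant. Dlk1, Plagl1 and Mirg had the fewest counts, but precision did not follow counts alone, and H19 had the largest standard errors.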

Additional observations from a re-analysis of the deposited data

How the results depend on the processing

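Same-numbered libraries of a diet deviated together across temperature, and these pairs were used as a replicate block for cold. On HFD, replicates 1 and 2 also deviated together when crossed, and what the shared number stands for was not tested. The labels name no pairs of mice, so calls made with the block hold only if the numbers mark true pairs. With that block 1 member, H19, was called for cold on NCD, on HFD and averaged over diets, where the fit without it called 0, and over all genes the block called 1483 against 1049 on NCD and 2153 against 1603 on HFD. Across diets the numbers do not pair the libraries, and there the block called 2 members for HFD averaged over temperatures, Peg3 and Igf2, as batch or the replicate number as a term did (2 each). At 4 °C it called 482 genes against 795, and 0 other imprinted genes against 3.

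Without the library of each group richest in muscle, 1 member was called in each cold contrast and for HFD at 4 °C, 2 for cold averaged over diets (H19 and Cdkn1c) and 2 for HFD averaged over temperatures (Peg3 and H19). The libraries left out were also the highest of their groups for H19, so its calls in this fit are not a test of H19. Within batch 1, members called were 1 for cold averaged over diets and 0 for HFD averaged over temperatures. With the stromal score as a term the latter was also 0. With no filter on counts Peg3 was called at 22 °C, at 4 °C and across the 4 groups (1 each), and DESeq2 called 1 at 4 °C. Leaving out 1 library at a time gave 0 to 1 members for HFD at 4 °C and 0 to 1 for cold averaged over diets. The share of all genes called in each of these fits is not given here, so a changed count of members is not read as a result about them.

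Other imprinted genes called were 4 for cold on NCD, and 0 within batch 1, without the muscle-rich libraries and with the stromal score; leaving out 1 library gave 0 to 5, with 0 without replicate 2 or 3 of NCD 22C. For cold on HFD they were 3, then 0 within batch 1, 1 without the muscle-rich libraries and 1 to 3 with 1 library left out. For HFD at 22 °C they were 0, then 4 with DESeq2, 3 with no filter, 1 each with the replicate number, the muscle score or the stromal score as a term, and 0 to 1 with 1 library left out. For HFD at 4 °C they were 3, then 1 with the compared groups alone, 0 within batch 1, 1 without the muscle-rich libraries and 0 to 3 with 1 library left out, 0 without replicate 1 or 3 of NCD 4C. The share of all genes called in each alternative fit is not given here either, so these changes in count have no background beside them.

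Directions turned only for values not called with all 12 libraries and no added term. H19 with cold is among them, although it was called lower with the block and without the muscle-rich libraries, and so is Peg3 with cold, which was called higher within batch 1. For cold averaged over diets, the muscle score as a term gave 0.29 for H19, -0.096 for Igf2 and -0.091 for Dlk1. The stromal score gave 1.58 for H19, -0.43 for Igf2, 0.019 for Rian, 0.15 for Mirg, -0.25 for Dlk1 and -0.061 for Peg3. Size factors gave -0.0034 for Igf2, batch 1 alone -0.056 for Igf2 and 0.19 for Mirg, and dropping the muscle-rich libraries -0.094 for Igf2 and -0.086 for Dlk1. With 1 library left out, values ran from -0.16 to 0.21 for Igf2, -0.18 to 0.019 for Mirg and -0.069 to 0.47 for Dlk1. For HFD averaged over temperatures H19 was 0.12 with the muscle score, 0.66 with the stromal score and -1.27 to 0.64 with 1 library left out. The Dlk1 to Meg3 ratio differed by 0.50 to 0.97 with 1 library left out. Of 1127 settings of single genes, 968 kept direction and side of the threshold, 110 lost a call, 19 gained one and 30 turned. The cause was not tested. With 3 libraries a group and 8 to 35 counts for Dlk1, small changes were not detectable.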
